A study of Bos taurus with 48 samples.

Results

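Serpin transcripts were examined in the day 17 endometrium of pregnant and cyclic dairy cows. The genes were SERPINA1, SERPINA3, SERPINA14, SERPING1, SERPINB11, SERPINE2, SERPINF1 and SERPINH1, and an array probe was taken as a member when its printed gene name, or the symbol closing its description, was one of these names. Of the 8 genes listed, 7 had a probe once current RefSeq names were added (6 by the printed names alone), giving 9 probes among 21475 on the array. The cows were lactating Holstein Friesians whose cycles had been synchronised. In the pregnant group 12 cows had received a grade 1 blastocyst on day 7, and the cyclic group was 10 cows that received none. Every cow gave 1 sample of caruncular endometrium, the gland-poor sites where the placenta attaches, and 1 of intercaruncular endometrium, the gland-rich tissue between them. The labels divided the pregnant cows by embryo size into 7 with a large embryo (over 20 cm and over 75 mg) and 5 with a small embryo (under 20 cm and under 40 mg), and by title into 6 fertile and 6 sub-fertile cows. The 2 divisions crossed, with 3 large fertile, 4 large sub-fertile, 3 small fertile and 2 small sub-fertile cows. The age of the cows was not given in the sources used here.

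Serpins are a family of proteins that mostly inhibit serine proteases. An inhibitory serpin offers an exposed loop as bait, and when the protease cuts it the loop folds into the body of the serpin and drags the protease along, which leaves both proteins permanently inactive. Some members have lost this activity and act as chaperones or signals, and ruminant uteri are known for a serpin that the endometrial glands secrete in large amounts during pregnancy.

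The probes measured different parts of the family unequally well. SERPINA1, SERPINA14, SERPINE2, SERPINF1, SERPING1 and SERPINH1 had 1 probe each and passed the signal filter. SERPINA14, the uterine serpin, was printed on the array as LOC286871 with the description of a uterine milk protein precursor, and took its name here from RefSeq. SERPINA3 had 3 probes, all of which stayed near background: they reached the measurable level in 0, 1 and 0 of 44 samples, so no change is given for it. SERPINB11 had no probe by the rule. A probe printed as LOC522479 was read as SERPINB11 in the study, while the array describes it as similar to clade B member 7 and RefSeq keeps LOC522479 apart from SERPINB11. In RefSeq order SERPINB11 lies before SERPINB7, followed by LOC522479 and then SERPINB2. Other clade B genes were not placed, so these need not be neighbours. This probe was measured in 44 of 44 samples and is given under its printed name, outside the counts of members. A second candidate, LOC614866, was measured in 0 samples.

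The 60-base sequences of the probes for SERPING1, SERPINA14 and LOC522479 are shown because SERPING1 carries the called rise, SERPINA14 took its name from RefSeq, and LOC522479 rests on its probe alone for its identity. Capitals mark AATAAA, the polyadenylation hexamer, which starts at base 54 of the SERPING1 probe. The hexamer was present in 13.6% of the 1689 probe sequences listed with the study.
SERPING1: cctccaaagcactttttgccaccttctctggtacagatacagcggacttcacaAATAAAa
SERPINA14: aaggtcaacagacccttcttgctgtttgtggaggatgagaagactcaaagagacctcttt
LOC522479: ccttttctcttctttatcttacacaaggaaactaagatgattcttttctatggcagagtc

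Levels are given as log2 ratios of the sample (Cy5) over a pool of all the endometrial samples (Cy3), so 0 is the level in the pool and each unit above it is 1 step of 2-fold. The number of cows, 22 in all, sets the precision. The 44 samples were held on 48 arrays, 4 caruncular samples having been hybridised again and averaged, and for the members the repeat arrays differed by 0.06 at the median and by 0.24 at most. Between 68.8% and 84.0% of spots on an array were well above background, and 0 member spots were saturated. All 6 measured genes of an interferon response reference list were higher in pregnancy in both tissues, so the pregnancy labels held. The intercaruncular sample of 1 pregnant cow, with a large embryo and a sub-fertile label, stood apart, with MX2 at 1.73 and RSAD2 at 1.57, where the other 11 pregnant cows reached at most 0.29 and 0.24 in that tissue. Its caruncular sample lay within the range of the other pregnant cows for both genes, and results that turn on this cow, called the outlying cow from here, are given with and without it. Tissue was almost the same split as slide and scan, since only 2 of 12 slides held both tissues. Pregnancy was nearly split by slide as well, with both states on only 3 of 12 slides. With slide as a fixed block the probes called for intercaruncular pregnancy went from 1064 to 127. Values of the gene and marker lists are from the main fit, without a slide block. In bulk tissue, fewer cells of a type cannot be told apart from less RNA per cell.

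**Figure D1:**
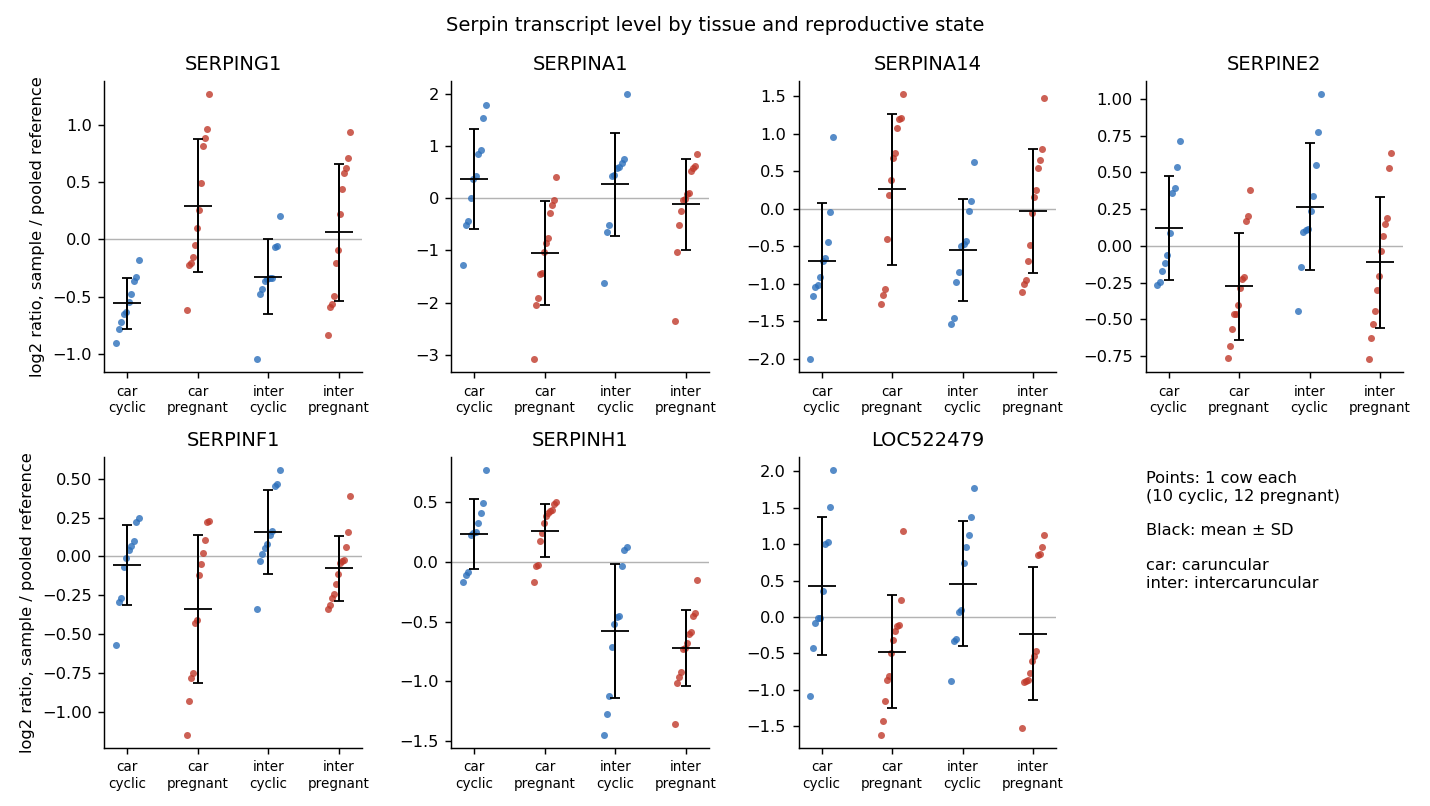
Log2 ratio of each serpin (vertical axis, sample over pooled reference) in the caruncular (car) and intercaruncular (inter) samples of 10 cyclic (blue) and 12 pregnant (red) cows. Each point is 1 cow and black bars are the mean ± SD. In caruncular tissue 9 of 12 pregnant cows lay above every cyclic cow for SERPING1, while SERPINH1 differed between the tissues rather than between pregnant and cyclic cows.

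The comparison of pregnant with cyclic cows asks which transcripts differ when an embryo is present shortly before implantation. In caruncular endometrium 9.99% of 14690 tested probes passed the threshold of a 1.5-fold change and an adjusted p under 0.05 (5.77% higher and 4.21% lower in pregnancy), and 2 of 6 members did. SERPING1 rose and SERPINA1 fell. The median change of the 6 members was -0.13, against -0.04 over all tested probes. In intercaruncular endometrium 7.24% of probes passed (3.99% higher and 3.25% lower) and 0 of 6 members did, with 2 members at an unadjusted p under 0.05. Their median change there was -0.19, and that of all probes was -0.01. Adjusted p-values are from limma with Benjamini-Hochberg adjustment over all tested probes.

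SERPING1 encodes C1 inhibitor, the plasma serpin that inactivates C1r and C1s at the head of the classical complement pathway and also the contact-phase proteases factor XII and kallikrein. In caruncular endometrium the 12 pregnant cows ranged from -0.61 to 1.26 with a median of 0.18, and the 10 cyclic cows from -0.90 to -0.18 with a median of -0.59. The lowest pregnant value was that of the outlying cow, and 9 of 12 pregnant cows lay above every cyclic cow. The level was 1.80-fold higher in pregnancy (log2 change 0.85, SE 0.19, 95% interval 0.46 to 1.24, adjusted p = 0.00202). Without the outlying cow the change was 0.93 (adjusted p = 0.00048). The call held under all 14 alternative treatments of the data, with adjusted p between 0.00048 and 0.0237. The treatment without centring is no separate check, because centring changed nothing. Within the 2 slides that held caruncular samples of both states the difference was 0.66 and 1.28, each resting on 1 cyclic sample. The 1.28 came from the slide with the lowest cyclic cow and the highest and lowest pregnant cows.

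In intercaruncular endometrium SERPING1 ranged from -0.83 to 0.93 in pregnant cows (median 0.07) and from -1.04 to 0.20 in cyclic cows (median -0.34). Here the groups overlapped more, with 6 of 12 pregnant cows above every cyclic cow. The change of 0.39 (SE 0.20, 95% interval -0.03 to 0.80, adjusted p = 0.18) did not pass, nor did the 0.47 found without the outlying cow (adjusted p = 0.0876).

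Whether the pregnancy effect differed between tissues was tested directly, in a fit that took every sample as independent and did not pair the tissues of a cow. This test called 0.0204% of probes and 0 of 6 members (1083 probes and 0 members had an unadjusted p under 0.05). For SERPING1 the effect was larger by 0.47 in caruncular tissue (95% interval -0.10 to 1.03, adjusted p = 0.807). The 2 tissues came from the same animals, and SERPING1 deviated from its group mean in step in both (Pearson r 0.93 over 22 cows, the highest of the members). A fit that took each cow as a replicate block gave the same difference an adjusted p of 0.00739, and it called 150 probes in all. The methods' t-test on the differences within cows gave an adjusted p of 0.0231.

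The proteases that C1 inhibitor targets and the complement components around them rose in pregnancy too. Of 14 genes on a list of its targets and early complement, 10 passed the signal filter, and in caruncular tissue 8 were higher and 0 lower, with a median change of 1.42 against -0.04 over all probes. C2 rose by 1.79 (adjusted p = 3.84e-05) and C1QB, a chain of the recognition molecule C1q, by 1.79 (adjusted p = 3.94e-06). C4A rose by 1.67 (adjusted p = 0.00185). The direct targets C1S and C1R rose by 1.58 (adjusted p = 0.000346) and 1.53 (adjusted p = 0.000311). In intercaruncular tissue 6 of the 10 were higher and 0 lower, with a median change of 0.81, among them C4A at 1.34 (adjusted p = 0.00727), C1S at 1.24 (adjusted p = 0.00161), C1QB at 1.23 (adjusted p = 0.00342) and C1R at 1.09 (adjusted p = 0.00114). C2 at 0.48 (adjusted p = 0.309) and MASP1, a protease of the lectin pathway, at 0.29 (adjusted p = 0.566) did not pass there. The contact-phase genes F12 and KNG1 passed in neither tissue.

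Macrophages are a main source of C1q, and some but not all of their markers passed in the same direction. Of 6 macrophage and monocyte markers, all measured, 3 were higher in pregnant caruncular tissue (median change 0.69) and 2 in intercaruncular tissue (median 0.53). Their mean log2 ratio per sample ran from -0.46 to 0.68 in pregnant and from -1.04 to -0.09 in cyclic caruncular samples. Smooth muscle markers moved the other way, with 5 of 8 lower in each tissue. Epithelial markers were mixed in caruncular tissue, where of 10 measured KRT18 (-0.86, adjusted p = 0.00759) and KRT19 (-0.77, adjusted p = 0.00323), keratins of simple epithelia, fell and CDH1 (1.02, adjusted p = 0.00566) and the claudin CLDN4 (0.95, adjusted p = 0.0422) rose. In intercaruncular tissue 3 of the 10 rose and 0 fell, CLDN4 (1.1, adjusted p = 0.0139), CDH1 (0.71, adjusted p = 0.0351) and CLDN3 (0.60, adjusted p = 0.01). Of 8 stromal markers 1 rose in caruncular tissue, PDGFRA (0.82, adjusted p = 0.00132), and 2 fell in intercaruncular tissue, COL1A1 (-1.01, adjusted p = 0.00625) and COL1A2 (-0.84, adjusted p = 0.00344). The part of these cell types in the SERPING1 and SERPINA1 results was not tested.

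**Figure D2:**
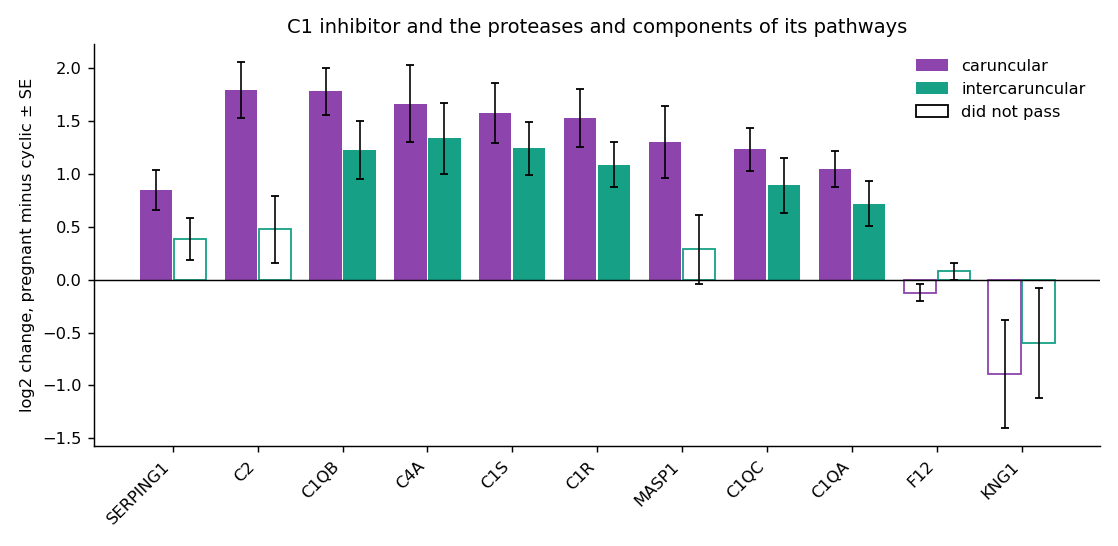
Change with pregnancy (log2, pregnant minus cyclic, bars with SE) for SERPING1 and the measured genes of its complement and contact-phase list, in caruncular (purple) and intercaruncular (green) endometrium of 12 pregnant and 10 cyclic cows. Filled bars passed the threshold: 8 list genes and SERPING1 in caruncular tissue, and 6 list genes in intercaruncular tissue.

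SERPINA1 encodes alpha-1-antitrypsin, the main inhibitor of neutrophil elastase. Its caruncular level ran from -3.07 to 0.41 in pregnant cows (median -0.94) and from -1.28 to 1.78 in cyclic cows (median 0.39). The ranges overlapped, with 5 of 12 pregnant cows below every cyclic cow and 5 of 10 cyclic cows above every pregnant cow. It was 2.66-fold lower in pregnancy (log2 change -1.41, SE 0.39, 95% interval -2.23 to -0.60, adjusted p = 0.0109). Without the outlying cow the change was -1.51 (adjusted p = 0.00786). The signal was low in places, and 1 pregnant caruncular sample fell just under the 80-unit limit. The call was lost when slide was fitted as a random block (-1.25, adjusted p = 0.0847) or a fixed block (-0.88, adjusted p = 0.388). Within the 2 slides that held both states the differences were 0.46 and -1.43, each resting on 1 cyclic sample.

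Intercaruncular SERPINA1 ranged from -2.35 to 0.84 in pregnant cows and from -1.63 to 1.99 in cyclic cows, with 1 pregnant cow below every cyclic cow and 1 cyclic cow above every pregnant cow. The change was -0.38 (adjusted p = 0.494). The difference between the tissues in this effect was -1.03 (95% interval -2.15 to 0.10, adjusted p = 0.747), and none of its 13 alternative fits passed. Of 11 genes on a list of neutrophil and mast cell proteases, 4 were measurable, and 0 passed with pregnancy in either tissue. The list also held granzymes and MPO, so it is not a list of SERPINA1 and SERPINA3 targets alone. Of 12 measured genes on an acute phase list, which holds liver acute phase proteins and genes of the signalling that induces them, 0 passed in either tissue.

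SERPINE2 encodes protease nexin-1, a tissue inhibitor of thrombin, urokinase and tissue plasminogen activator. In caruncular tissue it ran from -0.76 to 0.38 in pregnant cows (median -0.34) and from -0.27 to 0.71 in cyclic cows (median 0.01). Although 7 of 12 pregnant cows lay below every cyclic cow, the difference was small, at 1.32-fold (log2 change -0.40, SE 0.15, adjusted p = 0.049), under the 1.5-fold limit. The intercaruncular change was much the same size, at -0.38 (adjusted p = 0.139). Of 13 measured genes of plasminogen activation and thrombin, 0 were higher and 2 lower in caruncular tissue: ANXA2, a cell surface receptor for plasminogen, by -0.95 (adjusted p = 5.88e-05) and F2, prothrombin, by -0.75 (adjusted p = 0.0252). In intercaruncular tissue 0 of the 13 passed.

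SERPINA14 is the uterine serpin, a secreted protein of the endometrial glands that progesterone induces. In caruncular tissue it ranged from -1.27 to 1.52 in pregnant cows (median 0.53) and from -2.0 to 0.95 in cyclic cows (median -0.80), with 4 of 12 pregnant cows above every cyclic cow. The change of 0.96 (SE 0.37, 95% interval 0.20 to 1.72) narrowly missed the threshold (adjusted p = 0.0555). It passed in 3 of 14 alternative fits and missed in the others (adjusted p up to 0.390, with slide as a fixed block). Those it passed in were without the outlying cow (1.09, adjusted p = 0.0275), with scan as a block (0.94, adjusted p = 0.04) and in a single fit of all 44 samples (adjusted p = 0.0345). The intercaruncular change was 0.52 (95% interval -0.12 to 1.15, adjusted p = 0.244). Gland epithelium markers passed in neither tissue (0 of 4). Of 21 measured genes of a ruminant gland and progesterone response list, 3 were higher and 5 lower in caruncular tissue, led by OXTR, the oxytocin receptor, at -2.98 (adjusted p = 3.68e-07) and FST, follistatin, at 1.56 (adjusted p = 0.000299).

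SERPINF1, or pigment epithelium-derived factor, lacks protease inhibitory activity and is known for blocking vessel growth. Its caruncular change was -0.28 (95% interval -0.62 to 0.05, adjusted p = 0.201), and pregnant cows spread more widely (-1.15 to 0.23) than cyclic cows (-0.57 to 0.25). The intercaruncular change was -0.23 (95% interval -0.45 to -0.02, adjusted p = 0.112). SERPINH1, or HSP47, is the collagen chaperone of the endoplasmic reticulum and inhibits no protease. Pregnant and cyclic cows overlapped for it in both tissues, with changes of 0.03 in caruncular (95% interval -0.20 to 0.25, adjusted p = 0.871) and -0.14 in intercaruncular tissue (95% interval -0.51 to 0.23, adjusted p = 0.623). The LOC522479 probe ran from -1.62 to 1.18 in pregnant and from -1.09 to 2.02 in cyclic caruncular samples, a change of -0.91 (SE 0.35, adjusted p = 0.0556). It passed in 1 of 14 alternative fits, with scan as a block (-0.92, adjusted p = 0.0371), and the adjusted p reached 0.285 in the others. In intercaruncular tissue its change was -0.69 (adjusted p = 0.178).

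**Figure D3:**
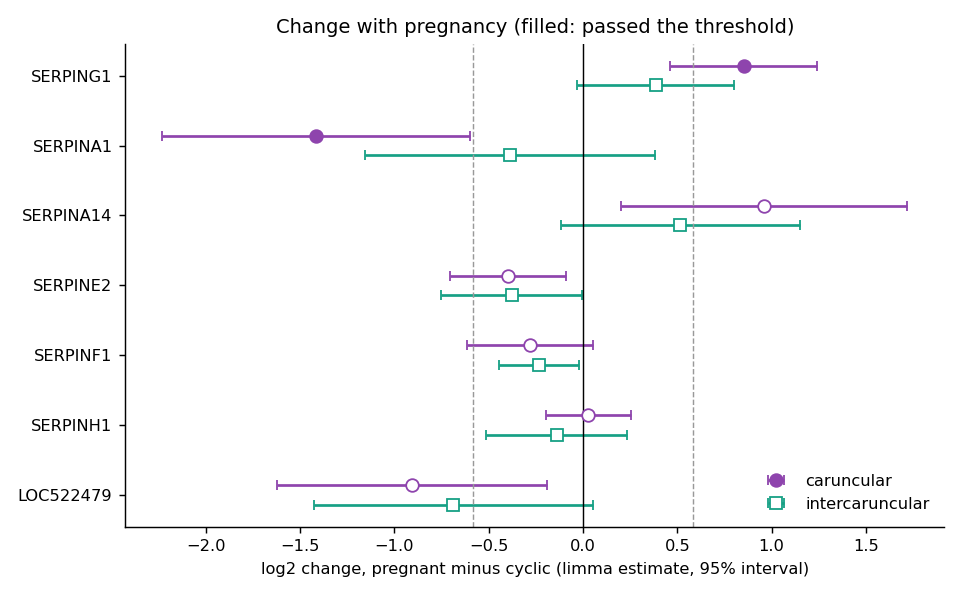
Change with pregnancy (horizontal axis, log2, pregnant minus cyclic, limma estimate with 95% interval) for the 6 tested members and LOC522479 in caruncular (purple circles) and intercaruncular (green squares) endometrium of 12 pregnant and 10 cyclic cows. Dashed lines mark a 1.5-fold change. The filled points, SERPING1 at 0.85 and SERPINA1 at -1.41 in caruncular tissue, passed the threshold.

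Between the tissues SERPINH1 was the member called in both pregnant and cyclic cows by the main fit, which did not pair a cow's samples. With each cow as a replicate block SERPING1 and SERPINF1 were called in both as well, as given below. The main fit called 48.5% of probes in pregnant cows (23% higher and 25.5% lower in caruncular tissue) and 33.5% in cyclic cows (16.3% higher and 17.2% lower). Of the 6 members, 1 was higher and 1 lower in pregnant cows, and 1 was higher and 0 lower in cyclic cows. In pregnant cows SERPINH1 ranged from -0.16 to 0.50 in caruncular tissue (median 0.35) and from -1.35 to -0.15 in intercaruncular tissue (median -0.70), so that 11 of 12 caruncular samples lay above every intercaruncular one. It was 1.97-fold higher in caruncular tissue (log2 difference 0.98, SE 0.11, adjusted p = 5.47e-07) and higher in 12 of 12 cows. Without the outlying cow the difference was 1.02 (adjusted p = 8.8e-08). In cyclic cows it ranged from -0.17 to 0.77 against -1.44 to 0.13, was 1.76-fold higher (0.81, SE 0.19, adjusted p = 0.00282), and was higher in 10 of 10 cows.

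Slide and scan limit these tissue differences. For 1 pregnant and 1 cyclic cow both tissues lay on the same slide, and there SERPINH1 was 0.59 and 1.27 higher in the caruncular sample. With slide as a fixed block the difference was 0.55 in pregnant cows (adjusted p = 0.372) and 1.46 in cyclic cows (adjusted p = 0.0555), and with scan as a fixed block it was 0.55 (adjusted p = 0.475) and 1.52 (adjusted p = 0.0682).

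Collagen chains, the proteins that SERPINH1 helps to fold, were listed together with the enzymes and transport factors that also act on collagen. Of 23 measured genes on that list, 15 were higher and 0 lower in caruncular tissue of pregnant cows, with a median difference of 0.56 against -0.02 over all probes. Examples were FKBP14, a prolyl isomerase of the endoplasmic reticulum, at 1.18 (adjusted p = 1.87e-05) and the collagen genes COL6A3 at 1.14 (adjusted p = 6.26e-05), COL1A1 at 1.07 (adjusted p = 0.00143) and COL5A2 at 1.04 (adjusted p = 2.65e-06). In cyclic cows 10 were higher and 1 lower (median 0.44), led by PLOD2, a collagen lysyl hydroxylase, at 1.16 (adjusted p = 0.000409). With pregnancy 1 of the list was higher and 2 lower in caruncular tissue, while 5 of the 23 were lower in intercaruncular tissue, led by COL3A1 at -1.32 (adjusted p = 0.000316) and CRTAP at -1.14 (adjusted p = 1.27e-05).

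Cell type markers also differed between the tissues. Of 8 stromal markers 7 were higher in caruncular tissue of pregnant cows, and their mean level ran from -0.14 to 1.16 there and from -0.52 to 0.24 in intercaruncular tissue. COL1A1 and COL1A2 are on both this list and the collagen list. Of 10 epithelial markers 8 were lower in caruncular tissue of pregnant cows and 1 was higher, the cell adhesion gene CDH1 (0.83, adjusted p = 0.00299). Of 4 gland epithelium markers 3 were lower and 0 higher. SERPINA14, described above as a gland product, did not pass between the tissues. Its difference was 0.29 in pregnant (adjusted p = 0.521) and -0.15 in cyclic cows (adjusted p = 0.737). The part of these cell types in the SERPINH1 and SERPINA1 differences was not tested.

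SERPINA1 was 1.90-fold lower in caruncular than in intercaruncular tissue of pregnant cows (-0.93, SE 0.36, adjusted p = 0.0372) and lower in 10 of 12 cows. That call was lost in 5 alternatives, among them the methods' t-test (adjusted p = 0.0501) and slide as a random block (-0.92, adjusted p = 0.117). In cyclic cows the difference was 0.10 (adjusted p = 0.873). Once each cow was fitted as a replicate block, 4 of 6 members passed in pregnant and 3 of 6 in cyclic cows. That block called 9028 of 14690 probes in pregnant and 7940 in cyclic cows. The block added SERPING1, which was higher in caruncular tissue in pregnant cows (0.23, adjusted p = 0.00123, 11 of 12 cows) and lower in cyclic cows (-0.23, adjusted p = 0.0167, 8 of 10 cows). It also added SERPINF1, lower in caruncular tissue in both (-0.26, adjusted p = 0.0345, 10 of 12 cows, and -0.21, adjusted p = 0.037, 8 of 10 cows).

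**Figure D4:**
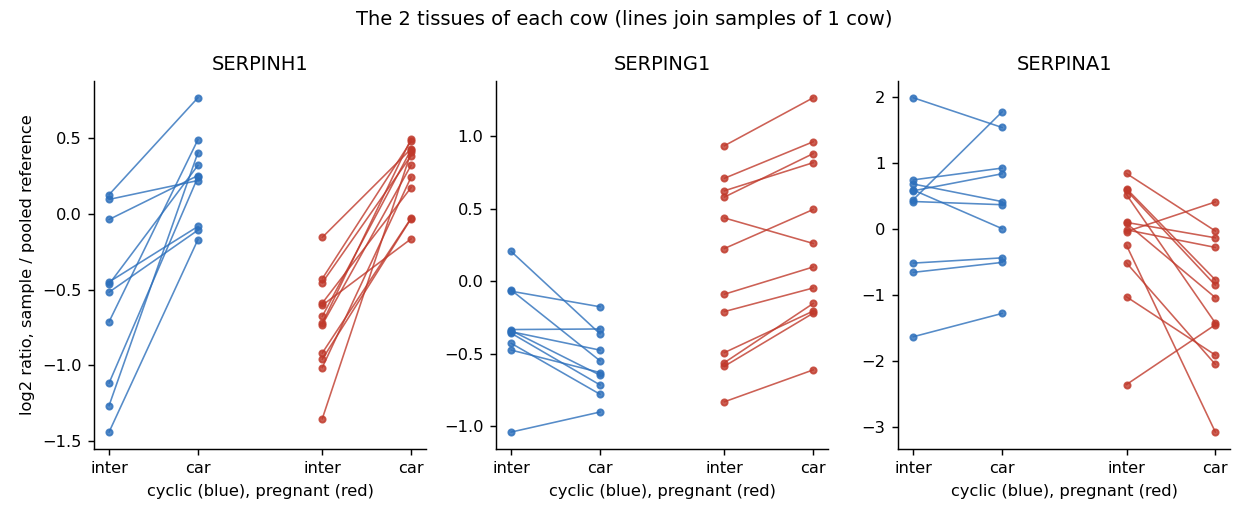
Log2 ratio (vertical axis, sample over pooled reference) of SERPINH1, SERPING1 and SERPINA1 in the intercaruncular (inter) and caruncular (car) sample of each cow, joined by a line, for 10 cyclic (blue) and 12 pregnant (red) cows. The SERPINH1 line rose from intercaruncular to caruncular tissue in 10 of 10 cyclic and 12 of 12 pregnant cows, and the SERPING1 line rose in 11 of 12 pregnant cows and fell in 8 of 10 cyclic cows.

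Embryo size was compared among the pregnant cows. In caruncular tissue limma called 0 of 14690 probes (0%), with 1014 probes and 1 member at an unadjusted p under 0.05, and the methods' t-test also called 0. In intercaruncular tissue 3.69% of probes passed an adjusted p of 0.05 (1.57% higher and 2.12% lower with a large embryo), and 0 of 6 members did, with 1 at an unadjusted p under 0.05.

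SERPINA14 came closest. Its intercaruncular values in the 5 cows with a small embryo were -1.11, -0.95, -0.70, -0.49 and -0.05, and the 7 cows with a large embryo ran from -1.0 to 1.48 with a median of 0.54. All large-embryo cows but 1 lay above every small-embryo cow, and the exception was the outlying cow. The difference was 1.07 (SE 0.34, 95% interval 0.33 to 1.81, adjusted p = 0.0976). Without the outlying cow it was 1.30 and passed (adjusted p = 0.00884), and over all 12 fits that left out 1 cow it ran from 0.89 to 1.30 (adjusted p 0.00884 to 0.2). It also passed with slide as a random (1.25, adjusted p = 0.0411) or fixed block (1.53, adjusted p = 0.0136). Calls over all probes rose too, from 542 to 1882 without the outlying cow and to 876 and 1086 with slide random and fixed. The scan block gave the value without the outlying cow by construction, since that cow was the only pregnant one in its scan in this tissue. It was also the only pregnant one on its slide in this tissue. The fixed slide block therefore left it out too and is no separate check. In caruncular tissue the difference was 0.05 (95% interval -1.15 to 1.24, adjusted p = 0.992). There the small-embryo cows fell apart by fertility label, with 1.08, 1.19 and 1.21 in the 3 fertile cows and -1.27 and -1.07 in the 2 sub-fertile ones, a split noticed in these values and not tested.

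SERPING1 differences by embryo size were positive in both tissues but did not pass. In caruncular tissue the small-embryo cows had -0.22, -0.21, -0.15, -0.05 and 0.26, and the large-embryo cows ran from -0.61 to 1.26 with a median of 0.82, of which 5 of 7 lay above every small-embryo cow. The difference was 0.63 (95% interval 0.04 to 1.22, p = 0.0374 in limma, adjusted p = 0.703). In intercaruncular tissue the values were -0.59, -0.56, -0.49, -0.21 and 0.44 against a range of -0.83 to 0.93 with a median of 0.58. That difference was 0.59 (adjusted p = 0.257), and 0.78 without the outlying cow, whose value was the lowest in both tissues (adjusted p = 0.0385). Of the 10 measured genes of the C1 inhibitor list 9 had a positive difference in each tissue, with a median of 0.86 in both, but 0 passed. Of 21 genes of the gland and progesterone list 2 passed in intercaruncular tissue, the glucose transporters SLC2A1 at 1.15 (adjusted p = 0.0239) and SLC5A1 at 0.86 (adjusted p = 0.0351).

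For the other members the size of the embryo gave adjusted p-values of 0.734 and above in caruncular tissue and 0.319 and above in intercaruncular tissue. The LOC522479 probe differed by -0.92 (large minus small) in caruncular tissue, where the small-embryo cows had -0.81, -0.19, -0.11, 0.23 and 1.18 and the large-embryo cows -1.62 to -0.13 (p = 0.018 in limma, adjusted p = 0.669).

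The fertility label separated no member past the threshold. In each tissue most fertile and sub-fertile cows lay on different slides, so for them slide and label cannot be told apart. Sign changes with slide as a fixed block are given further below. In caruncular tissue limma called 0 of 14690 probes (0%), with 2024 probes and 1 member at an unadjusted p under 0.05, and the methods' t-test also called 0. In intercaruncular tissue 0.0477% of probes passed (0.00681% higher and 0.0408% lower in fertile cows), and 0 of 6 members did or had an unadjusted p under 0.05. SERPINF1 ranged in caruncular tissue from -0.43 to 0.23 in fertile cows (median 0.03) and from -1.15 to 0.02 in sub-fertile cows (median -0.77), with 3 of 6 fertile cows above every sub-fertile one. Its difference was 0.56 (SE 0.21, p = 0.0191 in limma, adjusted p = 0.305), and in intercaruncular tissue it was 0.09 (adjusted p = 0.787). LOC522479 showed a wider gap in intercaruncular tissue, from -1.53 to -0.54 in fertile cows and from -0.87 to 1.13 in sub-fertile cows, where 5 of 6 sub-fertile cows lay above every fertile cow (-1.28, SE 0.34, p = 0.00241 in limma, adjusted p = 0.169). In caruncular tissue its difference was -0.37 (adjusted p = 0.706).

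**Figure D5:**
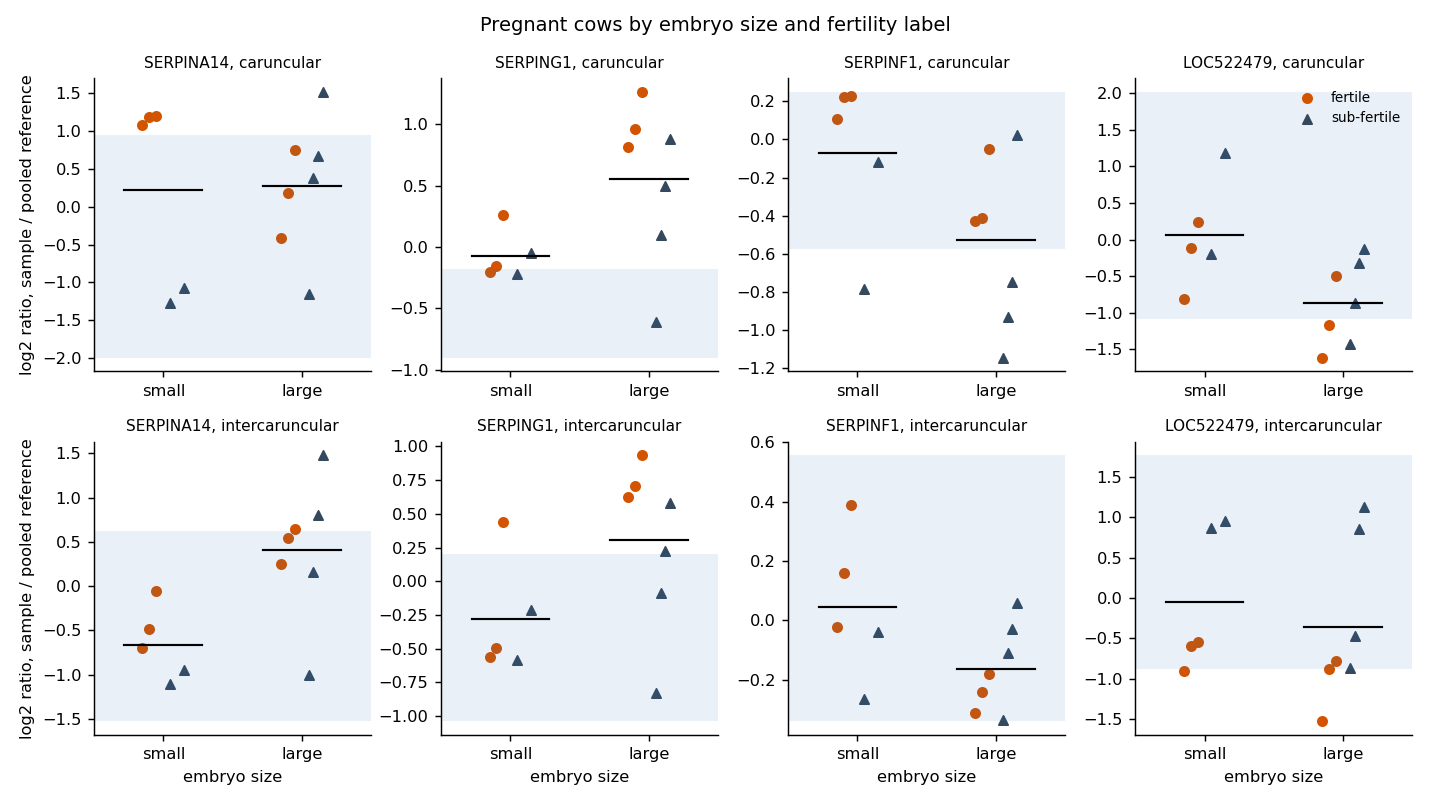
Log2 ratio (vertical axis, sample over pooled reference) in the 12 pregnant cows by embryo size (horizontal axis) for SERPINA14, SERPING1, SERPINF1 and LOC522479, with caruncular samples above and intercaruncular samples below. Circles are fertile and triangles sub-fertile cows, lines are group means, and the shaded band is the range of the 10 cyclic cows. In intercaruncular tissue the large-embryo cow with SERPINA14 at -1.0 is the outlying cow.

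The members did not follow one pattern across the 44 samples. Pearson correlations between members ran from -0.60 (SERPINA1 with SERPING1) to 0.51 (SERPINA14 with SERPING1), and from -0.46 to 0.35 for the same pairs after the mean of each tissue and state was taken out. These and the following correlations describe samples that share a reference pool and, in pairs, a cow. For the nearest probes below the group means were left in, so differences between tissues and states enter those correlations. The probes most like SERPING1 were 2 genes of its own pathway, C2 (r 0.89) and C1S (r 0.89), followed by ADRB3 (r 0.86). The probes most like SERPINH1 were HOXD10 (r 0.87), FBLN7 (r 0.87) and ADAMTS5 (r 0.86). SERPINA14 was most like SFT2D2 (r 0.82), DOT1L (r 0.81) and TPRKB (r 0.79). SERPINA1 was most like CHN2 (r 0.77), ELOVL2 (r 0.76) and ATF7IP2 (r 0.75), and ELOVL2 (r 0.69) was also among the 3 nearest LOC522479, with MAP2 (r 0.76) and ETFA (r 0.68). SERPINF1 was most like TNMD (r 0.74), MOXD1 (r 0.71) and OLFML2B (r 0.68), and SERPINE2 was most like FLJ22662 (r 0.82), PTRF (r 0.71) and GTF2A1 (r 0.71).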

How the data were processed

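RNA from 44 endometrial samples had been hybridised to 2-colour 60-mer arrays against a pooled reference, with the sample in Cy5, the pool in Cy3 and no dye swap, so dye bias of a probe shifts all samples alike. Per the file headers and the study's methods, the authors' software subtracted background, applied LOWESS dye normalisation and deposited log10 ratios of Cy5 over Cy3. The deposited processed intensity of the Cy5 channel served for the signal filter. The deposited matrix holds log2 ratios of 17876 probes, its column medians run from -0.0284 to 0.059, 40 of 48 columns equalled the scanner values within 1e-05, and the centring of the rest is unknown. It was used only as an alternative.

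Log10 ratios were converted to log2, averaged over the 2 unflagged spots of a probe, centred on the array median (0 on all 48 arrays, so centring changed nothing), and averaged over the arrays of a repeated sample. The filter asked for a Cy5 signal clearly over background and of 80 units or more in 22 or more of the 44 samples, and 14690 probes met it. Groups were compared with limma 3.58.1 in R 4.3.3, moderated over all tested probes. The main fits held no term for the cow, also where both tissues of a cow entered. Pregnancy calls needed a 1.5-fold change and an adjusted p under 0.05, and other calls an adjusted p under 0.05. The fit was tested on simulated data with independent noise and no cow, slide or scan effects, so that test cannot speak to those. For a gene with several probes the brightest was taken. Other serpins are named where called in a pregnancy or tissue comparison (1 item is not reported here), up to 4 genes of each list by size of change among those called (others named in the text were chosen after their values were seen), and the 3 probes nearest each member by Pearson r. Members, lists and tests were chosen with earlier results of these data known. Names came from the array, with RefSeq accessions matching 3524 and gene numbers 10098 of 21475 probes. The files name no genome build, so no coordinates are given.

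A cow's 2 tissues carry the same number in the labels. Deviations of the 2 tissues from their group means correlated over all tested probes at 0.11 to 0.87 (median 0.62), above 0.1 in 22 of 22 cows, and 21 of 22 correlated best with their own number, so the numbers pair samples of the same animal. Nothing says whether replicates within a group share other handling. Alternatives were normexp with loess, other centring and filters, the deposited matrix, the methods' t-test, either repeat array alone, slide blocks, the cow block, 1 fit of all samples, each pregnant cow left out of the embryo comparisons, and the other label as a covariate. Scan blocks, centring on the tested probes and leaving out the outlying pregnant cow elsewhere were chosen after seeing the data.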

Additional observations from a re-analysis of the deposited data

Results flagged for a closer look

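Of 70 groups of 4 to 10 cows examined for a sample far from the rest, 2 held one, and chance alone flags about 1 in 20 groups. SERPINA1 in the intercaruncular sample of 1 cow with a small embryo and a fertile label was -2.35, where the nearest of the other 4 cows with a small embryo was at -0.04. Its Cy5 signal was 107 units, near the 80-unit limit. LOC522479 in the intercaruncular sample of 1 fertile cow with a large embryo was -1.53, where the nearest of the other 5 fertile cows was at -0.90, and the same cow also had the lowest caruncular value of the pregnant cows, -1.62. For SERPING1 the pregnancy effect was larger in caruncular than in intercaruncular tissue by 0.465 with the cow as a replicate block (limma p = 1.09e-05, adjusted p = 0.00739), a difference that did not pass without the block (adjusted p = 0.807).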

How the results depend on the processing

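Of 1006 single-gene values under an alternative, 947 kept direction and side of the threshold, 17 newly passed, 11 no longer passed and 31 changed sign. The causes were not tested. The alternative without centring gave the main values by construction. In the embryo and fertility comparisons the scan block and the fit without the outlying cow were the same fit, counted under both names. Members called went from 2 to 1 for caruncular pregnancy under the stricter filter (which dropped SERPINA1) and either slide block, and to 3, with SERPINA14 added, with scan as a block, in the fit of all 44 samples and without the outlying cow. They went from 0 to 1 for the difference of pregnancy effects between tissues with scan as a block (1077 probes called, against 3), with the cow as a replicate block or with the t-test. For tissue in pregnant cows they went from 2 to 1 with no filter, the stricter filter, the t-test or slide as a random block, to 0 with slide or scan fixed, and to 4 with the cow block. For tissue in cyclic cows they went from 1 to 0 with slide or scan fixed and to 3 with the cow block. For embryo size in intercaruncular tissue they went from 0 to 1 with either slide block, to 2 with scan, and from 0 to 2 over the fits that left out 1 cow (2 without the outlying cow). Calls over all probes for that comparison went from 542 to 1882 with scan or without the outlying cow. The cow block changed no other member call.

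Sign changes occurred with slide as a fixed block for SERPINH1 in caruncular pregnancy (-0.20), for LOC522479 (0.76), SERPINA1 (1.49), SERPINA14 (-0.67) and SERPINH1 (0.55) in intercaruncular pregnancy, for SERPINE2 (0.078) and SERPINH1 (-0.93) in the difference between tissues, for SERPINA14 in cyclic tissue (0.43), for LOC522479 (0.35), SERPINE2 (0.28), SERPING1 (-0.51) and SERPINH1 (-0.016) in caruncular fertility, and for SERPINA1 (0.15), SERPINA14 (-0.64) and SERPING1 (-0.52) in intercaruncular fertility. With slide as a random block they were SERPINH1 in intercaruncular pregnancy (0.056) and SERPINE2 (0.036) and SERPINH1 (-0.093) in the difference between tissues. With scan as a block they were SERPINA14 (0.44) and SERPINE2 (0.074) in cyclic tissue and SERPINA14 in intercaruncular fertility (-0.042, also without the outlying cow), and with embryo size as a covariate SERPINE2 there (-0.0082). With 1 cow left out, embryo differences ran from -0.32 to 0.29 (SERPINA14) and -0.033 to 0.13 (SERPINH1) in caruncular tissue and from -0.30 to 0.45 (SERPINA1) and -0.0041 to 0.23 (SERPINH1) in intercaruncular tissue.

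Over all probes, calls went from 1467 to 915 for caruncular pregnancy with slide fixed, from 1064 to 653 and 127 for intercaruncular pregnancy with slide random and fixed, from 7121 to 0 for tissue in pregnant cows with slide or scan fixed, from 4927 to between 63 and 7940 in cyclic cows, and from 542 to between 34 and 1882 for embryo size in intercaruncular tissue. They went from 3 to between 0 and 1077 for the difference between tissues, from 7 to between 0 and 43 for intercaruncular fertility, and from 0 to 4 for caruncular fertility in the fit of all samples. The cow block took the calls for tissue in pregnant cows from 7121 to 9028. SERPINA3 has no value because its probes stayed near background, so no alternative with another probe of a member was run.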

Other observations

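The array held 22 other serpin genes on 23 probes, of which 11 probes for 10 genes were measurable. With pregnancy 0 of the 11 passed in either tissue. SERPINB1, an inhibitor of neutrophil proteases inside cells, was higher in both tissues by less than 1.5-fold, at 0.25 (limma adjusted p = 0.0284) and 0.38 (adjusted p = 0.00443).

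Between the tissues 4 of the 11 probes were lower in caruncular samples of pregnant cows, and 3 were in cyclic cows. SERPINI1, or neuroserpin, was lower (-0.98, adjusted p = 0.000281, and -0.58, adjusted p = 0.0401 in cyclic cows), as was SERPINA5, the protein C inhibitor (-0.84, adjusted p = 0.000306, and -0.50, adjusted p = 0.0245). SERPINB1 was lower in pregnant cows (-0.24, adjusted p = 0.0354). SERPINB5, or maspin, had a pair of probes that disagreed: 1 was lower in caruncular tissue (-0.57, adjusted p = 0.0211, and -0.62, adjusted p = 0.00922), while the other stood at 0.00 (adjusted p = 0.992) and -0.18 (adjusted p = 0.423). The latter was higher with a large embryo in intercaruncular tissue (0.71, adjusted p = 0.0212), where the former was at 0.46 (adjusted p = 0.121).

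Among 14 measured secreted protease inhibitors of other families, WFDC1, a whey acidic protein family member, fell with pregnancy in both tissues (-1.14, adjusted p = 0.000305, and -1.28, adjusted p = 9.93e-06), and SPOCK2 fell in intercaruncular tissue (-0.59, adjusted p = 0.00436). With a large embryo CSTB, the cystatin that inhibits cathepsins inside cells, was higher in intercaruncular tissue (0.75, adjusted p = 0.0308). Between the tissues of pregnant cows 4 of these inhibitors were higher in caruncular tissue, including TIMP1 (0.62, adjusted p = 3.23e-06) and RECK (0.61, adjusted p = 1.58e-05), and 2 were lower, SPINT1 (-0.62, adjusted p = 0.000315) and TIMP2 (-0.59, adjusted p = 0.00259). Of the remaining marker lists, endothelial markers were lower with pregnancy in both tissues (3 of 8 each), 1 of 5 pan-leukocyte markers was higher in each, and 0 of 5 T lymphocyte and 0 of 3 B lymphocyte markers passed. Neutrophil markers were measurable for 3 genes, of which 1 was higher in caruncular and 0 in intercaruncular tissue, and the single measurable red cell and the single measurable trophoblast gene passed in neither.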
